A study of Homo sapiens with 8 samples.

Results

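The 9 genes described here encode receptors for complement fragments (C3AR1, C5AR1, C5AR2, VSIG4 and CR1) and proteins that hold complement activation in check (CD46, CD55, CD59 and CFI). They were chosen by name, with earlier results of these data known. Each symbol matched 1 Ensembl gene of the 78899 in the deposited count table. Of the 9, 8 had enough counts to be tested, among 16249 genes tested in all, and CFI had too few. The RNA came from GFP-labelled microglia differentiated from H1, an established human embryonic stem cell line, and sorted by fluorescence 2 weeks after plating. In the tri-culture group (4 libraries) the microglia were kept with other cells, which the labels do not name, and without added cytokine. Both groups were fed 3 times per week. In the mono-culture group (4 libraries) the microglia were kept alone with IL-34 at 100 ng/mL and M-CSF at 10 ng/mL, added 3 times per week. Company of other cells and absence of the cytokines therefore changed together and cannot be told apart. Every batch, of 4 in all, gave 1 library to either group, and all libraries come from this 1 line and carry the GFP label, so every p-value reflects variation among batches of 1 line, not among donors. The labels also call the cells derived from induced pluripotent stem cells.

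Complement is a cascade of blood and tissue proteins in which cleavage of C3 and C5 releases the small peptides C3a and C5a and leaves C3b on the target surface. Phagocytes sense the peptides through G protein-coupled receptors and bind C3b and its breakdown products through receptors such as VSIG4 and CR1. Host cells carry CD46, CD55 and CD59 to stop the cascade on their own membrane, and in the brain microglia are known for complement-dependent uptake of synapses.

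Library totals ran from 17602010 to 24491765 counts in tri-culture and from 17037481 to 33363972 counts in mono-culture (exact 2-sided permutation p = 0.429; the smallest that 4 against 4 libraries allow is 0.0286). Among microglia and macrophage markers, 3 of 12 were higher in tri-culture and none lower, and their summed level was 5421 to 6537 CPM in tri-culture and 4072 to 4910 CPM in mono-culture. For this and the marker counts below, the share over all tested genes was 13.9% higher and 13.0% lower. CPM are counts scaled to a common library total, after scaling for composition with TMM factors. CD68, a macrophage marker, was counted at 0.335 ± 0.176 CPM in tri-culture and 0.618 ± 0.196 CPM in mono-culture (SD, n = 4 each). Another annotated gene on the same strand shares 81.7% of its exon bases, and how reads over both were counted is not given in the sources used here, so this value does not show that CD68 RNA was absent. Markers of other cells also differed. Of 12 astrocyte markers, 11 were tested and 9 were higher in tri-culture; they summed to 620.4 to 744 CPM there and to 219.5 to 292 CPM in mono-culture, where AQP4 and ALDH1L1 had no count. Most of the mono-culture sum was S100B (124 CPM) and SLC1A3 (109 CPM), while GFAP stood at 167 ± 81.1 CPM in tri-culture and 0.296 ± 0.153 CPM in mono-culture. In tri-culture libraries 1 to 4, S100B stood at 507, 436, 253 and 242 CPM and GFAP at 63.2, 151, 254 and 201 CPM. SLC1A3 stood at 81.8 CPM in tri-culture and was not called. Of 9 dendritic cell markers, 7 were tested and 5 were higher (336 to 485 CPM in tri-culture, 71.0 to 94.1 CPM in mono-culture). Of 12 neuron markers, 6 were tested, with 4 higher and 1 lower (31.2 to 59.4 CPM and 25.2 to 47.8 CPM), and STMN2, SNAP25, DCX and GAP43 had no count in mono-culture. Of 9 mesenchymal and endothelial markers, 4 were tested and 1 was higher (558 to 875 CPM and 260.5 to 353 CPM). Most of both sums was PECAM1, the one called higher (488 CPM in tri-culture, 271 CPM in mono-culture). The mesenchymal markers differed by library: in tri-culture libraries 1 to 4, COL3A1 stood at 203, 0, 222 and 81.7 CPM and DCN at 68.5, 0, 36.0 and 8.21 CPM. Of 9 oligodendrocyte lineage markers, 7 were tested, with 3 higher and 1 lower (302 to 409.7 CPM and 255 to 297 CPM). Most of both sums was MBP (245 CPM in tri-culture, 163 CPM in mono-culture) and CNP (99.4 and 100 CPM). Of 6 pluripotency markers, 1 was tested, SOX2, which neural progenitors and astrocytes also express; it stood at 5.79 to 18.05 CPM in tri-culture and had no count in mono-culture. Markers seen in 1 group alone enter the test through that group, so their counts of higher genes were partly set by the filter on low counts. Among the tested markers, 4 astrocyte, 3 neuron, 2 oligodendrocyte lineage and 2 dendritic cell markers and SOX2 reached the minimum level in all 4 tri-culture libraries and not in all 4 mono-culture libraries, and all of them were called higher. CSPG4, called lower, and PDGFRA, not called, reached that level in all 4 mono-culture libraries and not in all 4 tri-culture libraries. The part of these other cells in the results below was not tested.

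The comparison asks how microglia kept with other cells differ from microglia kept alone. Of the 8 tested genes, 5 were lower in tri-culture (C3AR1, C5AR1, VSIG4, CD46 and CD55), 1 was higher (C5AR2) and 2 did not pass (CR1 and CD59). The threshold was a Benjamini-Hochberg adjusted p under 0.05 in edgeR's quasi-likelihood test over all genes. Over all 16249 genes 26.9% were called, 13.0% lower and 13.9% higher. The median log2 fold change, tri-culture over mono-culture, was -0.43 over the 8 genes and 0.02 over all tested genes. In 5 of the 8 genes the CPM of the groups did not overlap (C3AR1, C5AR2, VSIG4, CD46 and CD55), against 29.4% of all tested genes. Under scaling by library totals alone, 3 of the 8 genes were lower and 1 higher, and the median of all genes moved to 0.12. In bulk RNA, fewer cells that express a gene and less of its RNA per cell cannot be told apart.

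**Figure D1:**
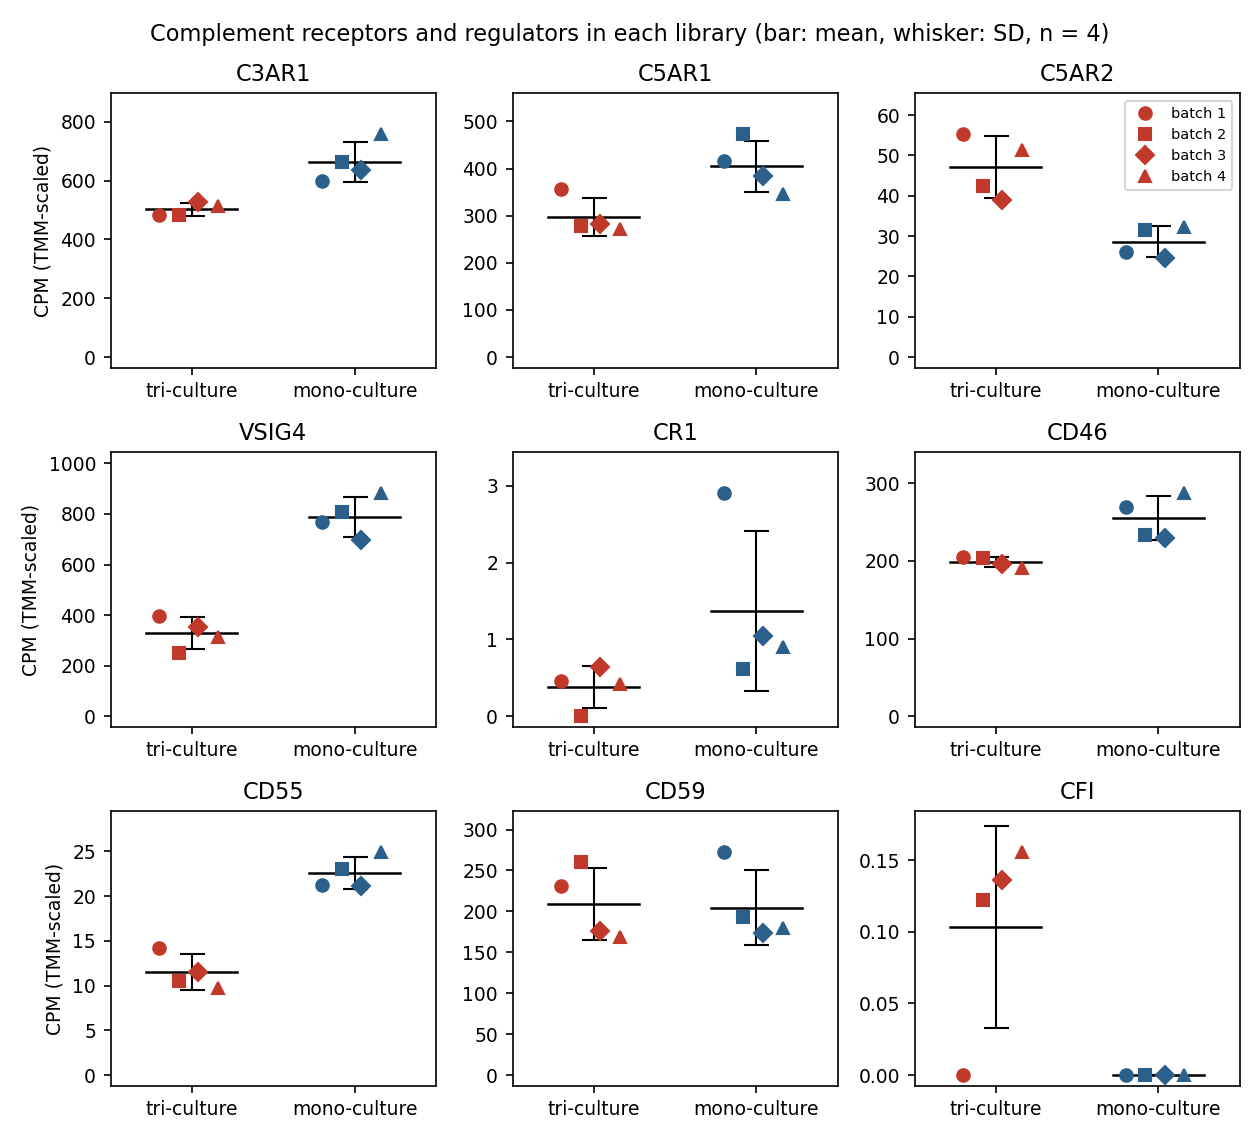
CPM (TMM-scaled, vertical axis, a scale for each gene) of the 9 genes in the 4 tri-culture libraries (red, left) and the 4 mono-culture libraries (blue, right); symbols mark the batch, horizontal lines the mean and whiskers the SD. VSIG4 lies between 249 and 397 CPM in tri-culture and between 696 and 884 CPM in mono-culture, C5AR2 is higher in all 4 tri-culture libraries, and CD59 overlaps throughout.

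The receptors of the cleavage peptides moved in different directions. C3AR1, the receptor of C3a (chromosome 12, 8058302 to 8066471, minus strand), stood at 484, 484, 526 and 514 CPM in tri-culture libraries 1 to 4 and at 599.6, 663, 636 and 759 CPM in mono-culture libraries 1 to 4. The tri-culture libraries lay close together and all were below the lowest mono-culture library. The means were 502 ± 21.4 and 664 ± 68.3 CPM (SD, n = 4 each), 1.32-fold lower in tri-culture (log2 fold change -0.40 ± 0.12 SE, edgeR adjusted p = 0.0214). This call was lost without mono-culture library 4, the highest one (adjusted p = 0.0725), and under scaling by library totals alone (0.0813).

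C5AR1, the main signalling receptor of C5a (chromosome 19, 47290023 to 47322066, plus strand), stood at 357, 278, 283 and 271 CPM in tri-culture and at 417, 474, 385 and 346 CPM in mono-culture. Tri-culture library 1 was above mono-culture library 4, so the groups overlapped, although the tri-culture library was the lower one in all 4 batch pairs. The means were 297 ± 39.9 and 405 ± 54.3 CPM, 1.36-fold lower in tri-culture (log2 fold change -0.45 ± 0.13 SE, adjusted p = 0.0251). It no longer passed without mono-culture library 1 (adjusted p = 0.0577) or 2 (0.0805) and without tri-culture library 2 (0.0556), 3 (0.0692) or 4 (0.0618).

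C5AR2 was the one gene of the set that rose. Its product binds C5a but does not couple to G proteins, and recruits arrestins. It stood at 55.4, 42.5, 38.9 and 51.4 CPM in tri-culture and at 26.0, 31.4, 24.6 and 32.3 CPM in mono-culture, and each tri-culture library was above every mono-culture library. The means were 47.0 ± 7.68 and 28.6 ± 3.87 CPM, 1.65-fold higher in tri-culture (log2 fold change 0.72 ± 0.14 SE, adjusted p = 0.00209). The call held in all 15 alternative settings, with adjusted p between 5.40e-05 and 0.00924. C5AR2 (chromosome 19, 47332147 to 47347327, plus strand) starts 10.1 kb beyond the end of C5AR1 on the same strand, with no other protein-coding gene annotated between them. Within a library, the ratio of C5AR1 to C5AR2 in the authors' length-scaled signal was 14.998, 15.2, 16.98 and 12.3 in tri-culture and 37.3, 35.2, 36.5 and 24.9 in mono-culture. C5AR1 thus had a higher RNA signal than C5AR2 in every library, by a smaller factor in each tri-culture library.

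**Figure D2:**
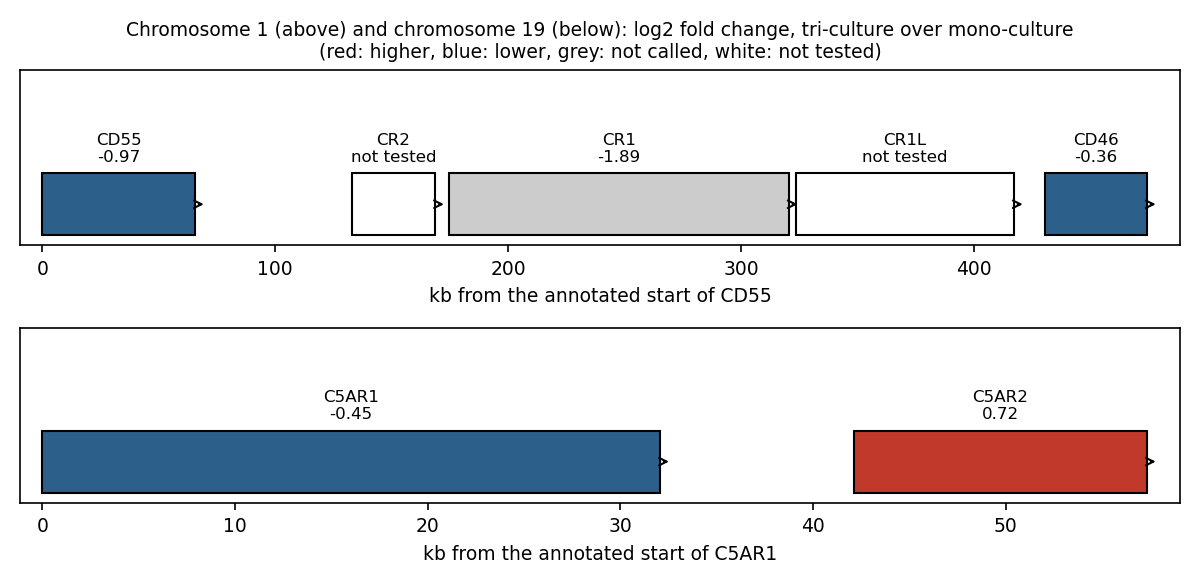
Map of the annotated gene bodies on chromosome 1 from CD55 to CD46 and on chromosome 19 from C5AR1 to C5AR2, with distance in kb from the first gene's start on the horizontal axis and the log2 fold change (tri-culture over mono-culture) above each gene. The neighbours C5AR1 and C5AR2 have fold changes of opposite sign (-0.45 and 0.72), whereas CD55, CR1 and CD46 all have negative ones, of which that of CR1 was not called.

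Sequences before RefSeq starts of both C5a receptor genes are shown because these neighbours moved in opposite directions. That of VSIG4, the gene with the smallest adjusted p, is shown beside them. The windows are RefSeq's (GRCh38.p14), cut to the bases outside annotated exons of the gene: chr19:47309611-47309860 for C5AR1, chr19:47331925-47332146 for the upstream C5AR2 start, chr19:47336845-47337094 for the downstream C5AR2 start (all plus strand) and chrX:66040126-66040330 for VSIG4 (minus strand). The windows of C5AR1 and of the downstream C5AR2 start lie inside the annotated gene bodies, not before their first base. Capitals mark GAGGAA, the purine box bound by the myeloid factor PU.1, on either strand.
C5AR1: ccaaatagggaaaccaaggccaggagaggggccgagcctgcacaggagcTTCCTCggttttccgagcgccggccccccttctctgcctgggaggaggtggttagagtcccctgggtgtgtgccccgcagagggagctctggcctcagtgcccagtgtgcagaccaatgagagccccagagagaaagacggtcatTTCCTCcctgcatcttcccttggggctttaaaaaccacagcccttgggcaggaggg
C5AR2, upstream start: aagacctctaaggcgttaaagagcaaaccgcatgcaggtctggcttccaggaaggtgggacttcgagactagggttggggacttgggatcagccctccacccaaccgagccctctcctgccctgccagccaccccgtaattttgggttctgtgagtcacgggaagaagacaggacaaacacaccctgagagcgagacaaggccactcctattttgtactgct
C5AR2, downstream start: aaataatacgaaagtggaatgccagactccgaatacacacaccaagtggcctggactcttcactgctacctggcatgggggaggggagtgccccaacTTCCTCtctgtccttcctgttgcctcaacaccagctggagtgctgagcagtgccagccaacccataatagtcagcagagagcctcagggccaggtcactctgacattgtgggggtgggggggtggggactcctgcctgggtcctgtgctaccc
VSIG4: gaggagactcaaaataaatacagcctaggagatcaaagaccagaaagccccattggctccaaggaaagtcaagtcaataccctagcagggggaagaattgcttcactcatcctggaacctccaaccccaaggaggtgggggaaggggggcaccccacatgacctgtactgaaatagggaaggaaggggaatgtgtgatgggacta
In the 250 bases before each start, the letters occurred 2 times for C5AR1, 201 and 56 bases before the start. They occurred 0 times for the upstream C5AR2 start and for VSIG4, and 1 time for the downstream C5AR2 start, 153 bases before it. Of 35116 RefSeq windows of the same length, 23.6% held the letters at least 1 time. SPI1, which encodes PU.1, stood at 486 ± 50.9 CPM in tri-culture and 485 ± 49.6 CPM in mono-culture (adjusted p = 0.988).

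Of the receptors that bind C3b, VSIG4 is an immunoglobulin-family receptor of tissue macrophages (chromosome X, 66021738 to 66040125, minus strand). It stood at 397, 249, 352 and 314 CPM in tri-culture and at 768, 809, 696 and 884 CPM in mono-culture. The highest tri-culture library was far below the lowest mono-culture library. It was 2.40-fold lower in tri-culture (log2 fold change -1.27 ± 0.15 SE, adjusted p = 4.54e-05), and it was called lower in all 15 alternative settings. The drop was -0.95 and -0.98 on the log2 scale in batches 1 and 3 and -1.70 and -1.49 in batches 2 and 4. By its size, the fold change exceeded that of 89.1% of all tested genes.

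CR1, which binds C3b and C4b and helps factor I to cleave them (chromosome 1, 207496147 to 207641765, plus strand), was barely detected. It had 10, 0, 14 and 8 counts in tri-culture and 85, 11, 35 and 15 counts in mono-culture, which is 0.459, 0, 0.635 and 0.416 CPM against 2.91, 0.611, 1.04 and 0.900 CPM. Mono-culture library 1 was far above the rest, and the groups overlapped between tri-culture library 3 and mono-culture library 2. Its fitted value of -1.89 ± 0.71 SE on the log2 scale did not pass (edgeR adjusted p = 0.0670). CR1 was called lower with the batch as a block (adjusted p = 0.0245), with DESeq2 (0.0359) and with no filter on low counts (0.00207). Without mono-culture library 1 the log2 fold change was -1.19 (adjusted p = 0.290). CR1 cleared the filter on low counts through the mono-culture group, where it is higher. The gene consists of long repeats and has the related neighbour CR1L, and how the authors counted reads that fit several places is not given in the sources used here. CR1L and CR2 had no count in any library.

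Of the membrane regulators, CD55 and CD46 fell and CD59 did not pass. CD55, the decay-accelerating factor that takes the C3 and C5 convertases apart (chromosome 1, 207321376 to 207386804, plus strand), stood at 14.2, 10.6, 11.6 and 9.72 CPM in tri-culture and at 21.3, 23.0, 21.1 and 25.0 CPM in mono-culture, with no overlap. It was 1.96-fold lower in tri-culture (log2 fold change -0.97 ± 0.15 SE, adjusted p = 0.000273), and it was called lower in all 15 alternative settings. CD46, the cofactor with which factor I cleaves C3b and C4b (chromosome 1, 207752057 to 207795513, plus strand), stood at 205, 204, 196 and 191 CPM in tri-culture and at 269, 233, 229.7 and 288 CPM in mono-culture. The groups did not overlap, and the 4 tri-culture libraries were the more even ones. The difference was small, 1.28-fold lower in tri-culture (log2 fold change -0.36 ± 0.11 SE, adjusted p = 0.0269). It was lost under scaling by library totals alone (adjusted p = 0.0864), without mono-culture library 1 (0.0694) or 4 (0.0929) and without tri-culture library 3 (0.0758) or 4 (0.0641).

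CD59, which blocks the assembly of the membrane attack complex (chromosome 11, 33703010 to 33736491, minus strand), stood at 231, 261, 176 and 168 CPM in tri-culture and at 273, 193, 173 and 179 CPM in mono-culture. Libraries 1 and 2 of tri-culture and library 1 of mono-culture were the high ones, and the groups overlapped throughout. The means were 209 ± 44.4 and 205 ± 46.2 CPM (SD, n = 4 each), and the fitted difference was 0.03 ± 0.18 SE on the log2 scale (edgeR adjusted p = 0.930). The tri-culture library was the higher one in 2 of the 4 batch pairs and the lower one in the other 2. The fitted value changed sign when single libraries were left out, without a call in any of them.

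CD55, CR1 and CD46 lie in 474 kb of chromosome 1, the cluster of regulators of complement activation. In chromosome order the protein-coding genes are CD55, CR2, CR1, CR1L and CD46. Their log2 fold changes, where tested, were -0.97 for CD55, -1.89 for CR1 and -0.36 for CD46, of which that of CR1 was not called. CD59, outside the cluster, is like CD55 held in the membrane by a glycosylphosphatidylinositol (GPI) anchor. Of 28 genes for the synthesis and attachment of this anchor, 27 were tested, and 1 was higher (PGAP3, log2 fold change 0.53, adjusted p = 0.0420) and 1 lower (PIGT, a subunit of the transamidase that attaches proteins to the anchor, -0.38, adjusted p = 0.0161). Their median log2 fold change was -0.02, against 0.02 over all tested genes, of which 13.9% were higher and 13.0% lower.

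CFI encodes factor I, the protease that inactivates C3b and C4b, and is made mostly by the liver (chromosome 4, 109740694 to 109802179, minus strand). It had 0, 3, 3 and 3 counts in the tri-culture libraries and no count in the 4 mono-culture libraries. No library exceeded 3 counts, the limit that a count of 0 allows per library (0.122 to 0.156 CPM in tri-culture and 0.0895 to 0.180 CPM in mono-culture, for counting error alone), so no fold is given. The annotated gene AC126283.2 shares 32.0% of the CFI exon bases on the same strand, and had no count in any library. How reads over both genes were counted is not given in the sources used here, and their part in the low CFI counts was not tested.

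**Figure D3:**
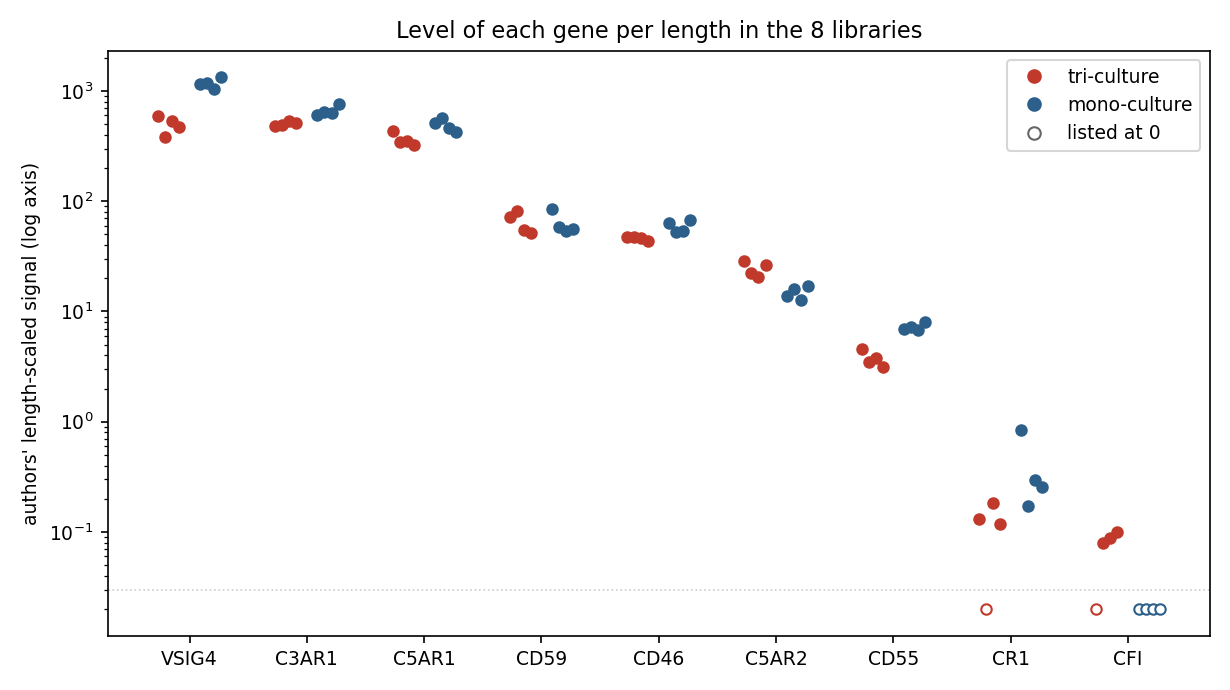
The authors' length-scaled signal (log axis) of the 9 genes in the 4 tri-culture libraries (red) and the 4 mono-culture libraries (blue), in order of the mono-culture mean; open symbols below the dotted line are libraries listed at 0. VSIG4, C3AR1 and C5AR1 lie well above the other 6 genes in all 8 libraries.

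Levels of different genes can be compared only per length, for which the second deposited table, a signal scaled by gene length and by library, was used. In this signal, C3AR1 (502 ± 21.9 signal units) and VSIG4 (494 ± 92.8) led in tri-culture and did not differ beyond their spread. C5AR1 followed (362 ± 47.8). That C3AR1 and VSIG4 were level depends on the gene length used. With the exon bases of GENCODE 29, C3AR1 was above VSIG4 in every tri-culture library. It held 38.6% to 46.0% of the summed signal of the genes described here, and VSIG4 held 23.2% to 31.0%. In mono-culture VSIG4 led (1180.1 ± 117), with C3AR1 (659.9 ± 67.4) and C5AR1 (490.1 ± 61.1) after it. By the mean of the authors' signal, VSIG4 ranked 173rd among the 16249 tested genes in tri-culture and 70th in mono-culture. C3AR1 ranked 170th and 134th, and C5AR1 250th and 196th.

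The membrane regulators were present at lower levels. CD59 (65.0 ± 14.1 in tri-culture, 63.3 ± 14.96 in mono-culture) and CD46 (46.4 ± 1.75 and 59.1 ± 7.11) came next in both groups. The order of these 2 depends on the gene length used: with the exon bases of GENCODE 29, the share of the summed signal was 3.82%, 5.14%, 3.10% and 3.11% for CD59 and 4.04%, 4.77%, 4.10% and 4.20% for CD46 in tri-culture libraries 1 to 4, and CD46 was the higher in all 4 mono-culture libraries. C5AR2 (24.6 ± 3.82 and 14.8 ± 1.92), CD55 (3.73 ± 0.634 and 7.26 ± 0.569) and CR1 (0.108 ± 0.0776 and 0.392 ± 0.304) followed, and CFI was listed at 0 in tri-culture library 1 and in all mono-culture libraries. CD46 exceeded CD55 by 10.4, 13.9, 12.2 and 14.2 times in tri-culture libraries and by 9.11, 7.31, 7.83 and 8.30 times in mono-culture libraries.

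In percentage points the share of VSIG4 differed most between the groups. It held 32.8% ± 3.56 of the summed signal of the 9 genes in tri-culture and 47.6% ± 1.75 in mono-culture, while C3AR1 held 33.7% ± 3.20 and 26.7% ± 1.86 and C5AR1 24.1% ± 1.67 and 19.9% ± 2.79. C5AR2, a small share, held 1.64% ± 0.226 in tri-culture and 0.598% ± 0.0421 in mono-culture, a larger relative difference. The ratio of VSIG4 to C3AR1 was 1.23, 0.776, 1.01 and 0.920 in tri-culture libraries and 1.93, 1.84, 1.65 and 1.75 in mono-culture libraries. These shares and this ratio depend on the gene length used. With the exon bases of GENCODE 29, VSIG4 held 27.7% and C3AR1 43.8% in tri-culture, and 41.6% and 35.8% in mono-culture. The sums are a description and were not tested.

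**Figure D4:**
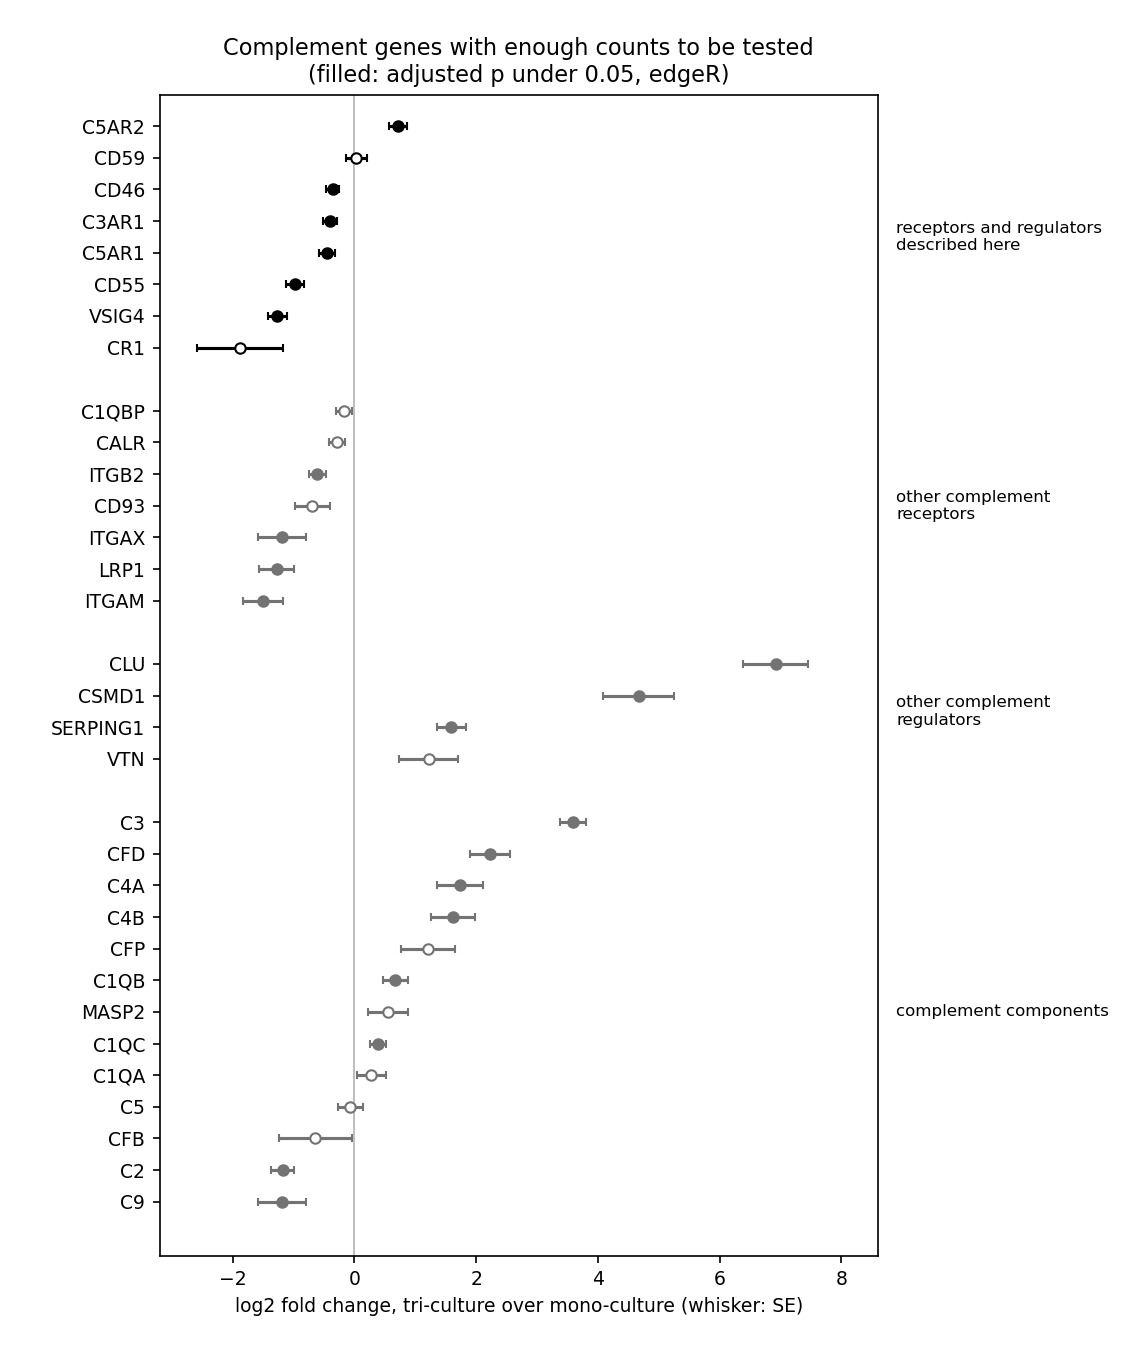
Log2 fold change, tri-culture over mono-culture (horizontal axis, whiskers SE), of the 8 tested receptors and regulators (black) and of the other tested complement genes (grey, by list); filled circles passed an adjusted p under 0.05. MASP1, with no count in mono-culture, is not drawn. The black circles lie between -1.89 and 0.72, and the other receptors are all below 0.

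Other complement receptors that changed were lower. Of 8 genes of this list, 7 were tested, with 4 lower, none higher (over all tested genes 13.0% and 13.9%) and a median log2 fold change of -0.69. The 4 were ITGAM (-1.50, adjusted p = 0.00383), the alpha chain of complement receptor 3; ITGAX (-1.19, 0.0403), that of complement receptor 4; ITGB2 (-0.61, 0.00605), the beta chain that both share; and LRP1 (-1.28, 0.00511), an endocytic receptor. ITGAM stood at 40.7, 25.3, 85.6 and 93.4 CPM in tri-culture and 173 ± 32.3 CPM in mono-culture (SD, n = 4). ITGAX stood at 8.54, 17.2, 46.98 and 44.2 CPM in tri-culture and 66.4 ± 9.31 CPM in mono-culture, and LRP1 at 248.9, 169.9, 508 and 514 CPM and 874 ± 81.2 CPM. In all of these, tri-culture libraries 1 and 2 were well below libraries 3 and 4, which in turn were below every mono-culture library. Over the 3 lists of other complement genes together, 25 were tested. Of these 10 were called higher and 6 lower, against 11 and 4 under scaling by library totals alone and 13 and 3 with no filter. The 10 include CLU, CSMD1 and MASP1, and the 6 include C9. Each of these cleared the filter on low counts through the group where it is higher, so these counts were partly set by the filter. Among soluble or other regulators, 4 of 19 genes were tested. Of these CLU, CSMD1 and VTN cleared the filter on low counts through the tri-culture group, where they are higher, so the number called higher says little about the list. The 3 called higher were CLU (54.1 ± 32.6 CPM in tri-culture, 0.434 ± 0.168 CPM in mono-culture), the clusterin gene; CSMD1 (1.68 ± 0.499 and 0.0556 ± 0.0588 CPM); and SERPING1 (43.0 ± 12.1 and 14.2 ± 5.19 CPM), the C1 inhibitor gene. Astrocytes are known to express CLU, and GFAP (167 and 0.296 CPM) and AQP4 (23.2 CPM and no count) differed in the same direction; their part was not tested.

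Of 27 components of the cascade, 14 were tested, with 7 higher, 2 lower (over all tested genes 13.9% and 13.0%) and a median log2 fold change of 0.61. C9, called lower (0.444 CPM in tri-culture, 1.01 CPM in mono-culture), cleared the filter on low counts through the mono-culture group, where it is higher. Of the 10 genes that reached the minimum level in all libraries of both groups, 6 were higher and 1 lower. C3, the source of the ligands of C3AR1, VSIG4 and CR1, stood at 3719 ± 891 CPM in tri-culture and 308 ± 52.0 CPM in mono-culture (log2 fold change 3.59, adjusted p = 1.50e-07). C5, the source of the ligand of both C5a receptors, stood at 11.98 ± 1.57 and 12.6 ± 3.64 CPM (adjusted p = 0.858). CFD, a protease of the alternative pathway, was higher (2.23, 0.000205). MASP1, a protease of the lectin pathway, stood at 0.792 ± 0.247 CPM in tri-culture and was without a count in mono-culture; it entered the test through the tri-culture group alone, so its call is not read further. C2, which forms part of the classical C3 convertase, was lower (-1.18, 0.000414). C4A and C4B, both called higher, are near-identical, and their separate values are uncertain.

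Of 20 genes for signalling from the peptide receptors, all were tested, and 3 were higher and 5 lower. Over all tested genes 13.9% were higher and 13.0% lower, so the number higher was near that share. The median log2 fold change was -0.13. RGS1 (71.6 ± 24.9 CPM in tri-culture, 17.2 ± 6.14 CPM in mono-culture) and RGS2 (27.5 ± 9.27 and 8.75 ± 1.28 CPM), which shorten G protein signals, were higher. GNG2, a G protein gamma subunit, was lower (60.4 ± 11.5 and 205.6 ± 41.0 CPM; log2 fold change -1.77, adjusted p = 5.92e-06), as was RAC2, a small GTPase of leukocytes (-0.77, 0.000196). The alpha subunit gene GNAI2 stood at 1030.4 ± 137 and 1090 ± 73.6 CPM (adjusted p = 0.722).

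For each tested gene the most similar profile was sought among 10423 genes with a symbol and a mean of at least 5 CPM, by Pearson correlation of log2 CPM over the 8 libraries. These values are a description, since they share the group difference and the 8 libraries. The 2 closest genes were PXDN (0.994) and SLITRK4 (0.993) for VSIG4 and THEMIS2 (0.997) and TSPO (0.993) for CD55, and LPIN1 (0.984) was among the 2 closest for CD46. The closest were ABHD3 (0.983) and E2F1 (0.980) for C3AR1, CAPNS1 (0.985) and CMTM3 (0.984) for C5AR1, and PBXIP1 (0.973) and FCGR2A (0.972) for C5AR2. They were SUFU (0.961) and KHSRP (0.953) for CR1 and PPP1R21 (0.959) and HYLS1 (0.957) for CD59. With the group means removed, THEMIS2 (0.983) stayed the closest to CD55, while the closest gene became GNA15 (0.967) for C5AR2 and NAMPT (0.992) for CD59. Each of these is the highest of 10423 correlations over 8 libraries, picked for its size, and was not tested.

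**Figure D5:**
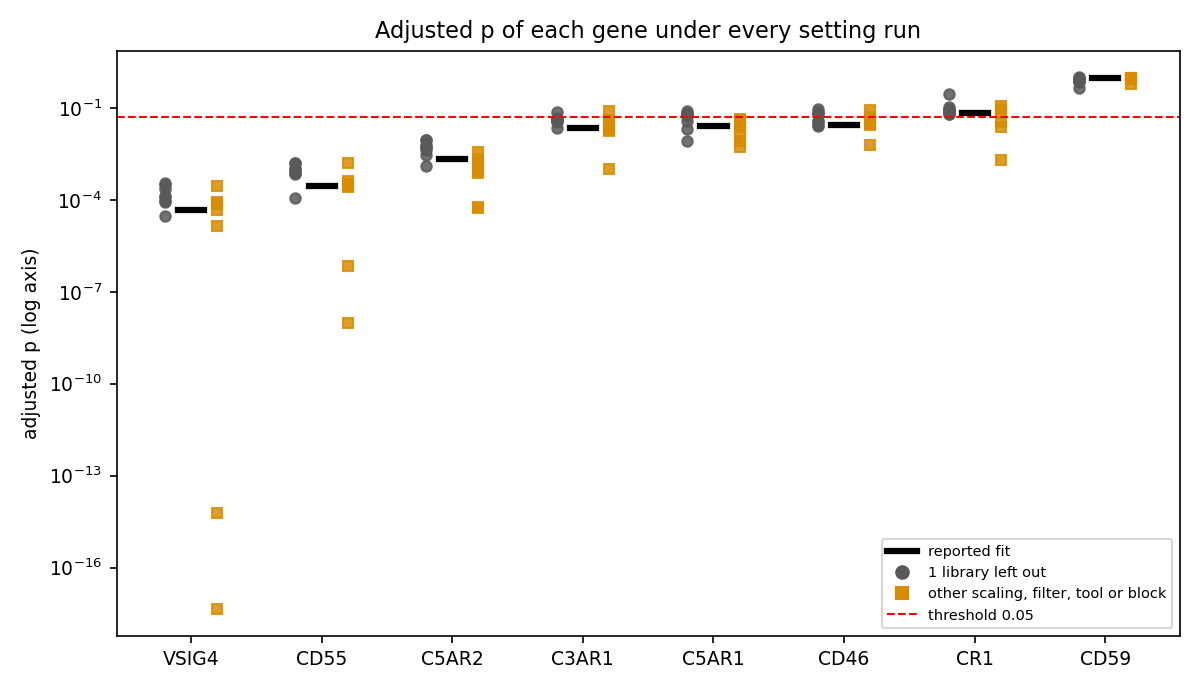
Adjusted p (log axis) of the 8 tested genes in the reported fit (black bar), with each library left out in turn (grey circles) and under other scaling, filter, tool or block (orange squares); the dashed line is 0.05. VSIG4, CD55 and C5AR2 stay under the line in every setting, whereas C3AR1, C5AR1, CD46 and CR1 cross it and CD59 stays above it.

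The 8 genes differed in how firmly they were called. VSIG4, CD55 and C5AR2 were called in the reported fit and in all 15 alternatives run. C3AR1 was called in 13 of 15, and C5AR1 and CD46 in 10 of 15 each. CR1 was called in 3 of the 14 alternatives in which it was tested, and CD59 in none of 15.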

How the data were processed

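Per the labels' protocols, GFP-labelled microglia were sorted into a lysis reagent and RNA was purified in 4 independent batches. The deposited count table holds raw reads per gene; the submitters' processing notes name HISAT2 2.1.0, featureCounts 2.12.3 and GRCh38. Annotation release, library strand and the counting of shared reads were not given in these sources. The deposited signal table, named TPM by the authors, has totals of 865863 to 1138851 that differ between libraries, so it was used as a length-scaled signal. Genes were filtered (filterByExpr, minimum count 10, minimum total 15), scaled by TMM and compared in R 4.3.3 by the robust quasi-likelihood test of edgeR 4.0.16, with group as the only term. SEs are the absolute log2 fold change over the square root of F. Coordinates and overlaps come from GENCODE 29, also GRCh38. On simulated counts for the 16249 genes, 7 of 50 genes changed 1.5-fold, 34 of 50 changed 2-fold and 47 of 50 changed 4-fold were recovered, with 10 unchanged genes called. Only 50 genes were changed at each of these folds and at 8-fold, a far smaller part than the 26.9% called in the data. The adjusted p was therefore stricter in the simulation, and its recovery does not give the power of the comparison.

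The members and lists were chosen with earlier results of these data known. Named beyond the members were up to 4 called genes per list with the smallest adjusted p and the 2 closest profiles per member, of which 1 is not reported here; C5, GNAI2, SPI1, CD68, C4A, C4B and genes at 0 were added after their values were seen. The labels give same-numbered libraries a shared batch, which pairs them (correlations of their deviations from group means 0.185, 0.126, 0.264 and 0.0796, against -0.369 to 0.360 for libraries of different batches). Replicates differed beyond sampling noise. Alternatives were other scaling, filters, DESeq2 1.42.0, limma 3.58.1 on log2 of the deposited signal plus 0.5, the batch block and each library left out.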

Additional observations from a re-analysis of the deposited data

Results flagged for a closer look

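C5AR1 in tri-culture library 1 stood at 357 CPM, far from the other 3 tri-culture libraries at 271 to 283 CPM. Of 17 groups of 4 values looked at, this was the only one with such a gap, and chance gives about 1 in 20. Without that library the C5AR1 call held (log2 fold change -0.55, adjusted p = 0.00817).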

How the results depend on the processing

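Directions held in every setting for the 7 tested genes other than CD59. Of the 6 calls, those of VSIG4, CD55 and C5AR2 held in all 15 alternatives. Under scaling by library totals alone, C3AR1 (log2 fold change -0.30, adjusted p = 0.0813) and CD46 (-0.26, 0.0864) did not pass, and the split over all genes moved to 2829 higher and 1663 lower, against 2261 and 2112 with TMM. CR1 was called lower with no filter (-1.92), with DESeq2 (-1.88) and with the batch as a block (-1.88); pairing by batch changed no other call of the 8 genes. Leaving out 1 library gave log2 fold changes of -0.45 to -0.34 for C3AR1, -0.55 to -0.37 for C5AR1, 0.63 to 0.81 for C5AR2, -1.38 to -1.16 for VSIG4, -2.27 to -1.19 for CR1, -0.41 to -0.30 for CD46, -1.09 to -0.90 for CD55 and -0.10 to 0.20 for CD59. It left 4 to 6 of the genes called, 3814 to 4446 of all genes and 12 to 16 of the other complement genes. With a minimum count of 50, 17 of the other complement genes were tested in place of 25, and 10 were called in place of 16. With GENCODE 29 lengths the shares of the summed signal were 27.7% for VSIG4, 43.8% for C3AR1 and 18.7% for C5AR1 in tri-culture, and 41.6%, 35.8% and 16.0% in mono-culture. On simulated counts, with far fewer changed genes than were called in the data, 7 of 50 genes changed 1.5-fold were recovered. CR1 and CFI had few counts each, and the reason was not tested. Why calls were lost was not tested.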
